A study of Mus musculus with 13 samples.

Results

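The deiodinases (Dio1, Dio2, Dio3), the thyroid hormone receptors (Thra, Thrb) and the hormone transporter gene Slc16a10 were followed in cultured mouse prostate progenitor/stem cells exposed to 1,25-dihydroxyvitamin D3 (1,25D), the hormonal form of vitamin D. These 6 genes were looked up by symbol in the annotation of the array, and 5 of them had probe sets: 12 of the 45037 probe sets tested, on an array with 18193 named genes. Dio2 had 3 probe sets, Dio1 1, Thra 3, Thrb 1 and Slc16a10 4, and Dio3 was not analysed here. Each gene was represented by its brightest probe set, judged by the mean of the 13 arrays, and the others are given beside it. Dio2 was put forward with its response to 1,25D known, so its signals under 1,25D are a description without a p-value.

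Thyroid hormone leaves the thyroid gland mostly as thyroxine, which binds its nuclear receptors weakly, and Dio2 turns it into the active triiodothyronine inside the cell by removing an iodine atom from the outer ring. Dio1 can do the same and also clears hormone, whereas Dio3 inactivates hormone by taking an iodine atom from the inner ring. Thra and Thrb encode nuclear receptors that bind DNA mostly together with retinoid X receptors, the partners that the vitamin D receptor also uses, and Slc16a10 carries aromatic amino acids and thyroid hormone across the plasma membrane. Dio2 is best known from brain, pituitary and brown fat, where it sets the local level of triiodothyronine.

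The cells came from 10 wk old mice of the genotype given as wild-type B1/6; 127/SVEV and were at passage 22. They received 100 nM 1,25D or its vehicle, ethanol at 0.1%. RNA was taken from 1,25D for 48 h (4 arrays), vehicle for 48 h (3 arrays), 1,25D for 6 h (3 arrays) and vehicle for 6 h (3 arrays). The labels do not say whether the replicates were separate cultures, so p-values measure only the spread between these arrays, and their number limits the precision. Signals are the authors' log2 values, between 3.05 and 14.45, with array medians of 5.57 to 5.67. Vehicle 6 h replicate 1 and 1,25D 48 h replicate 4 stood apart, with interquartile ranges of 3.03 and 2.95 against 3.27 to 3.46 on the other 11 arrays. Differences of the members between 1,25D and vehicle are given without them as well, and those over time in vehicle where they moved by over 1.5 times or turned in sign.

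Cyp24a1, the vitamin D catabolic enzyme induced by the vitamin D receptor, checked the labels: its signal was 12.18 to 12.56 with 1,25D and 4.10 to 4.92 with vehicle at 48 h, and 12.81 to 13.21 with 1,25D and 4.40 to 4.78 with vehicle at 6 h. Markers of basal epithelium were bright, with Krt5 and Krt14 at percentiles 99.2 and 99.9 of all probe sets, as were the luminal keratins Krt8 and Krt18, each at percentile 99.7. Pbsn, a secretory product of luminal cells, was at percentile 6.39, and Tgm4, of the same list, at 47.2. Thyroglobulin (Tg), the product of thyroid follicle cells, was at percentile 33.2, the lowest of 5 markers, which reached 56.9 (Slc5a5). Ptprc, the pan-leukocyte marker, was at percentile 16.4, the lowest of 6 leukocyte markers. These had a median of 49.5 and reached 67.1 (Cd3e). The 10 markers of fibroblasts and smooth muscle had a median of 48.0 and reached 96.0 (Vim). Whether such cells were present was not tested. Of 6 luminal markers, 1 rose and 2 fell with 1,25D at 48 h, and 1 rose and 0 fell at 6 h. Of all genes, 2.39% were called at 48 h and 0.852% at 6 h. Krt8 fell by 0.43 (limma, adjusted p = 0.000158) and Krt18 fell by 0.34 log2 units (adjusted p = 0.000503) at 48 h. Krt19, another keratin of simple epithelia, rose by 0.58 at 48 h (adjusted p = 0.032) and by 0.80 at 6 h (adjusted p = 0.0093), but lost the 48 h call without the arrays that stood apart (adjusted p = 0.050), without any 1 array of vehicle at 48 h and without replicate 2, 3 or 4 of 1,25D at 48 h (adjusted p up to 0.18). The 48 h call was also lost with median centring and with the replicate number as a block. The 6 h call was lost without replicate 1 or 3 of 1,25D at 6 h (adjusted p up to 0.071). It was also lost when only the groups compared were fitted (adjusted p = 0.21). The mean signal of the 6 luminal markers was 9.93 to 10.1 with 1,25D and 10.0 to 10.1 with vehicle at 48 h, and 9.73 to 9.84 with 1,25D and 9.65 to 9.70 with vehicle at 6 h. Of 6 leukocyte markers, 1 rose with the hormone, Cd68 by 1.23 at 48 h (adjusted p = 0.000846). The mean signal of these 6 was 5.68 to 5.97 with 1,25D and 5.59 to 5.70 with vehicle at 48 h. The part of these markers in the responses below was not tested. In bulk RNA, more cells of a type and more RNA per cell cannot be told apart.

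Dio2 was the member that differed between hormone and vehicle, and it did so at both times. Its main probe set, 1418937_at, read 9.58, 9.73, 9.28 and 9.52 in the 4 arrays of 1,25D at 48 h, against 5.46, 5.28 and 5.55 in the 3 arrays of vehicle at 48 h. At 6 h the values were 7.83, 8.34 and 7.87 with 1,25D, against 4.99, 5.23 and 5.26 with vehicle. Every array with 1,25D lay far above every array with vehicle, and each array of 1,25D at 48 h lay above each array of 1,25D at 6 h. Averaged, the signal was 9.53 ± 0.19 with 1,25D (SD, n = 4) and 5.43 ± 0.14 with vehicle (SD, n = 3) at 48 h. The 6 h averages were 8.01 ± 0.29 with 1,25D and 5.16 ± 0.15 with vehicle (SD, n = 3 each). The difference at 48 h was 4.10 log2 units (95% confidence interval 3.75 to 4.44), a 17.1-fold higher signal (13.5 to 21.7). At 6 h the difference was 2.85 log2 units (2.49 to 3.22), a 7.23-fold higher signal (5.61 to 9.32). Without the arrays that stood apart the differences were 4.10 at 48 h and 2.77 at 6 h.

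**Figure D1:**
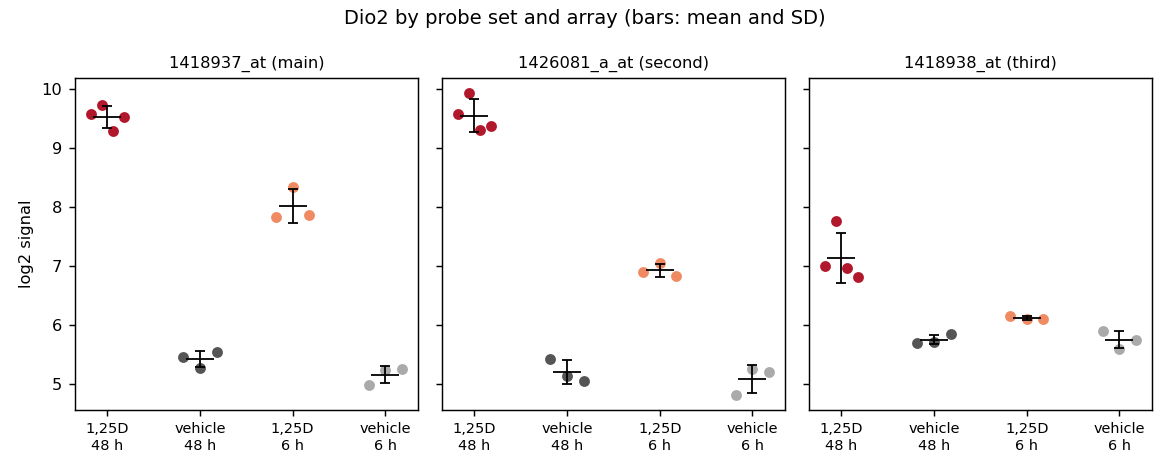
Log2 signal of the 3 Dio2 probe sets on each of the 13 arrays, by group, with the group mean and SD as bars. In all 3 probe sets the arrays with 1,25D lie above the arrays with vehicle at both times. The differences are smaller in the third probe set, most of all at 6 h.

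The other Dio2 probe sets gave the same direction and other sizes. The second, 1426081_a_at, read 9.57, 9.92, 9.30 and 9.37 with 1,25D and 5.43, 5.15 and 5.05 with vehicle at 48 h. Its 6 h values were 6.91, 7.04 and 6.83 with 1,25D and 4.82, 5.26 and 5.21 with vehicle. Its differences were thus 4.34 log2 units at 48 h (3.96 to 4.71), or 20.2-fold, and 1.83 at 6 h (1.44 to 2.23), or 3.56-fold. The 48 h difference resembled that of the main probe set, whereas the 6 h intervals of these probe sets did not overlap. The third, 1418938_at, read 7.0, 7.77, 6.96 and 6.82 with 1,25D and 5.70, 5.72 and 5.85 with vehicle at 48 h. The values at 6 h were 6.15, 6.10 and 6.10 with 1,25D and 5.90, 5.6 and 5.75 with vehicle. The second and the third differed by 4.39 and 1.49 at 48 h and by 1.70 and 0.44 at 6 h without the arrays that stood apart. The arrays of the third did not overlap at either time, but the differences were smaller, at 1.38 log2 units at 48 h (0.97 to 1.79), or 2.61-fold, and 0.37 at 6 h (-0.07 to 0.81), an interval that includes 0. Which part of the transcript each probe set reads was not analysed here.

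The Dio2 difference between hormone and vehicle had a higher value at 48 h than at 6 h in each of its probe sets, given as a description. The 48 h value exceeded the 6 h value by 1.24 log2 units in the main probe set (0.74 to 1.75), 2.50 in the second (1.96 to 3.05) and 1.02 in the third (0.41 to 1.62). Without the arrays that stood apart these values were 1.33, 2.70 and 1.05. With vehicle alone, Dio2 stayed low: 48 h minus 6 h was 0.27 log2 units in the main probe set (limma, adjusted p = 0.45), although its 3 arrays at 48 h lay just above the 3 at 6 h. The second and the third probe set differed by 0.11 (adjusted p = 0.85) and 0.00 (adjusted p = 1.00), and by -0.02 and 0.08 without the arrays that stood apart. The order of the Dio2 groups was therefore 1,25D 48 h, 1,25D 6 h and then the vehicle groups, between which no difference was called.

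The start of the Dio2 gene is shown because Dio2 is the member with the response, and its regulation by cyclic AMP is textbook knowledge. The window runs from 250 bases before to 50 after the start site in RefSeq (GRCm38.p6, chr12:90738989-90739288, minus strand), with the motifs found in capitals. It was searched on both strands for AGGTCA, the hexamer that many nuclear receptors bind, for TGACGTCA, the cyclic AMP response element, and for DR3, a pair of such hexamers in the same direction, 3 bases apart, which the vitamin D receptor binds. TATAAA, the core of a TATA box, was added after the sequence had been seen.
Dio2 promoter: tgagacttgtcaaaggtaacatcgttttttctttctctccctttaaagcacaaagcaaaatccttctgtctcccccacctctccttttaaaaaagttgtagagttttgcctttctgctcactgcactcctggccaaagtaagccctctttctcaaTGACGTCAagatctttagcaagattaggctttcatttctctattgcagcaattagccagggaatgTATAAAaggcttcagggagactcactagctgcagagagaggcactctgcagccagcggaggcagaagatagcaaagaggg
TGACGTCA begins 95 bases and TATAAA 30 bases before the start site, and neither AGGTCA nor DR3 was found in this window. Over all 32851 windows of the table, TGACGTCA was in 1.79%, TATAAA in 13.6%, AGGTCA in 16.3% and DR3 in 0.0396%. The motifs do not overlap in the Dio2 window. The table held 6 windows of 5 members and matched no window of Thra. TGACGTCA was in the Dio2 window and in no other of the 6, AGGTCA in 1 of the 2 Thrb windows, and TATAAA in the windows of Dio2 and Dio3 and in the other Thrb window. Enhancers outside the window were not analysed here, and a match of letters is no evidence of binding.

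Dio1, the other measured deiodinase, had a low signal in all groups. Its probe set read 4.14, 4.19, 4.20 and 4.33 with 1,25D and 4.11, 4.18 and 4.23 with vehicle at 48 h. The 6 h values were 4.18, 4.13 and 4.26 with 1,25D and 4.47, 4.36 and 4.23 with vehicle. The groups overlapped at both times. The difference was 0.04 log2 units at 48 h (-0.13 to 0.22, limma, adjusted p = 1.00) and -0.16 at 6 h (-0.35 to 0.03, adjusted p = 0.93). Both were smaller without the arrays that stood apart, at 0.00 and -0.10. The group means lay between percentiles 17.8 and 21.8 of all probe sets, and detection calls were not used, so whether Dio1 was expressed is not known. Dio1 responses as large as that of Dio2 lie outside these intervals on this scale, which understates changes of dim genes. Dio3os, a noncoding neighbour of Dio3 in antisense direction that was named after its values were seen, averaged 6.19 ± 0.40 with 1,25D (SD, n = 4) and 6.17 ± 0.07 with vehicle (SD, n = 3) at 48 h. Its differences of 0.02 at 48 h (adjusted p = 1.00) and -0.20 at 6 h (adjusted p = 0.97) say nothing of Dio3 itself.

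Thra, the first of the receptor genes, was called at neither time by the test across all probe sets. Its main probe set, 1443952_at, read 8.15, 8.20, 8.06 and 8.17 with 1,25D and 7.82, 7.88 and 8.12 with vehicle at 48 h. Its 6 h signals were 7.23, 7.08 and 7.36 with 1,25D and 7.83, 7.55 and 7.72 with vehicle. The groups overlapped at 48 h and did not at 6 h, where the arrays with 1,25D were the lower ones. The difference was 0.20 log2 units at 48 h (-0.07 to 0.47, adjusted p = 0.99) and -0.47 at 6 h (-0.76 to -0.19, unadjusted p = 0.00343, adjusted p = 0.26). The 6 h difference was not called in any of the 26 alternative settings run. The difference between the responses was 0.68 (0.28 to 1.07, unadjusted p = 0.00255, adjusted p = 0.28) and was not called either. Without the arrays that stood apart the differences were 0.20 at 48 h and -0.41 at 6 h (adjusted p = 0.26 at 6 h).

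The other Thra probe sets overlapped between hormone and vehicle at 6 h, through vehicle replicate 1, 1 of the arrays that stood apart. The second, 1454675_at, read 7.42, 7.47 and 7.23 with 1,25D and 7.22, 7.54 and 7.63 with vehicle, a difference of -0.09 (-0.44 to 0.26, adjusted p = 0.97). The third, 1426997_at, read 6.83, 6.89 and 6.52 with 1,25D and 6.56, 7.07 and 6.95 with vehicle, a difference of -0.11 (-0.51 to 0.28, adjusted p = 0.97). In both, vehicle replicate 1 lay among or below the arrays with 1,25D, and the other vehicle arrays lay above all of them. Without the arrays that stood apart the differences were -0.21 and -0.26 (adjusted p = 0.63 and 0.64), and neither was called. At 48 h they differed by 0.24 (-0.09 to 0.56) and 0.02 (-0.35 to 0.39), and by 0.34 and 0.08 without those arrays. The choice of the main probe set was close, with means over the 13 arrays of 7.78 for the main and 7.74 for the second. Thra encodes a receptor and, by splicing, a form that does not bind hormone, and its end overlaps Nr1d1 on the opposite strand. Which of these transcripts each probe set reads was not analysed here.

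Over time in vehicle, 48 h minus 6 h was positive in the 3 Thra probe sets, at 0.24 (adjusted p = 0.35), 0.42 (adjusted p = 0.13) and 0.36 log2 units (adjusted p = 0.29), and none was called. The last was 0.21 without the arrays that stood apart (adjusted p = 0.46). The second separated these groups without overlap, at 7.88, 7.82 and 7.94 at 48 h against 7.22, 7.54 and 7.63 at 6 h. The length of culture and any difference in handling between the times cannot be told apart in this comparison, in which 12.3% of all probe sets were called and 23.5% did not overlap.

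Thrb, the second receptor gene, lay within a narrow range on all arrays. It read 5.30, 5.30, 5.41 and 5.52 with 1,25D and 5.30, 5.20 and 5.33 with vehicle at 48 h. At 6 h it read 5.40, 5.22 and 5.30 with 1,25D and 5.19, 5.30 and 5.28 with vehicle. Hormone and vehicle overlapped at both times, and the differences were 0.11 at 48 h (-0.12 to 0.33, adjusted p = 1.00) and 0.05 at 6 h (-0.19 to 0.29, adjusted p = 0.97). They were 0.06 and 0.01 without the arrays that stood apart. Intervals of this width do not show that Thrb was unaffected. With vehicle alone, Thrb at 48 h minus 6 h was 0.02 (limma, adjusted p = 0.97), and -0.01 without the arrays that stood apart.

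Slc16a10, the transporter, also overlapped between hormone and vehicle. Its main probe set, 1434592_at, read 5.31, 5.42, 5.35 and 5.54 with 1,25D and 5.66, 5.47 and 5.27 with vehicle at 48 h. At 6 h it read 5.43, 5.64 and 5.47 with 1,25D and 5.22, 5.73 and 5.73 with vehicle. The differences were -0.06 at 48 h (-0.38 to 0.26, adjusted p = 1.00) and -0.05 at 6 h (-0.39 to 0.30, adjusted p = 0.98). At 6 h the overlap came from vehicle replicate 1, and without the arrays that stood apart the differences were -0.11 at 48 h and -0.22 at 6 h (adjusted p = 0.84 and 0.58). The other 3 probe sets differed by 0.03 to 0.10 at 48 h and by 0.01 to 0.13 at 6 h, and none was called. Without those arrays the same 3 differed by 0.00 to 0.03 at 48 h and by -0.10 to 0.12 at 6 h. The sign turned with the second probe set and when some single arrays were left out, so no direction is given for Slc16a10. With vehicle alone, 48 h minus 6 h was -0.10 in the main probe set (limma, adjusted p = 0.86). Without the arrays that stood apart it was -0.27 (adjusted p = 0.19). The fourth probe set, 1440569_at, differed by -0.06 over time, and by -0.03 without those arrays. Neither was called.

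**Figure D2:**
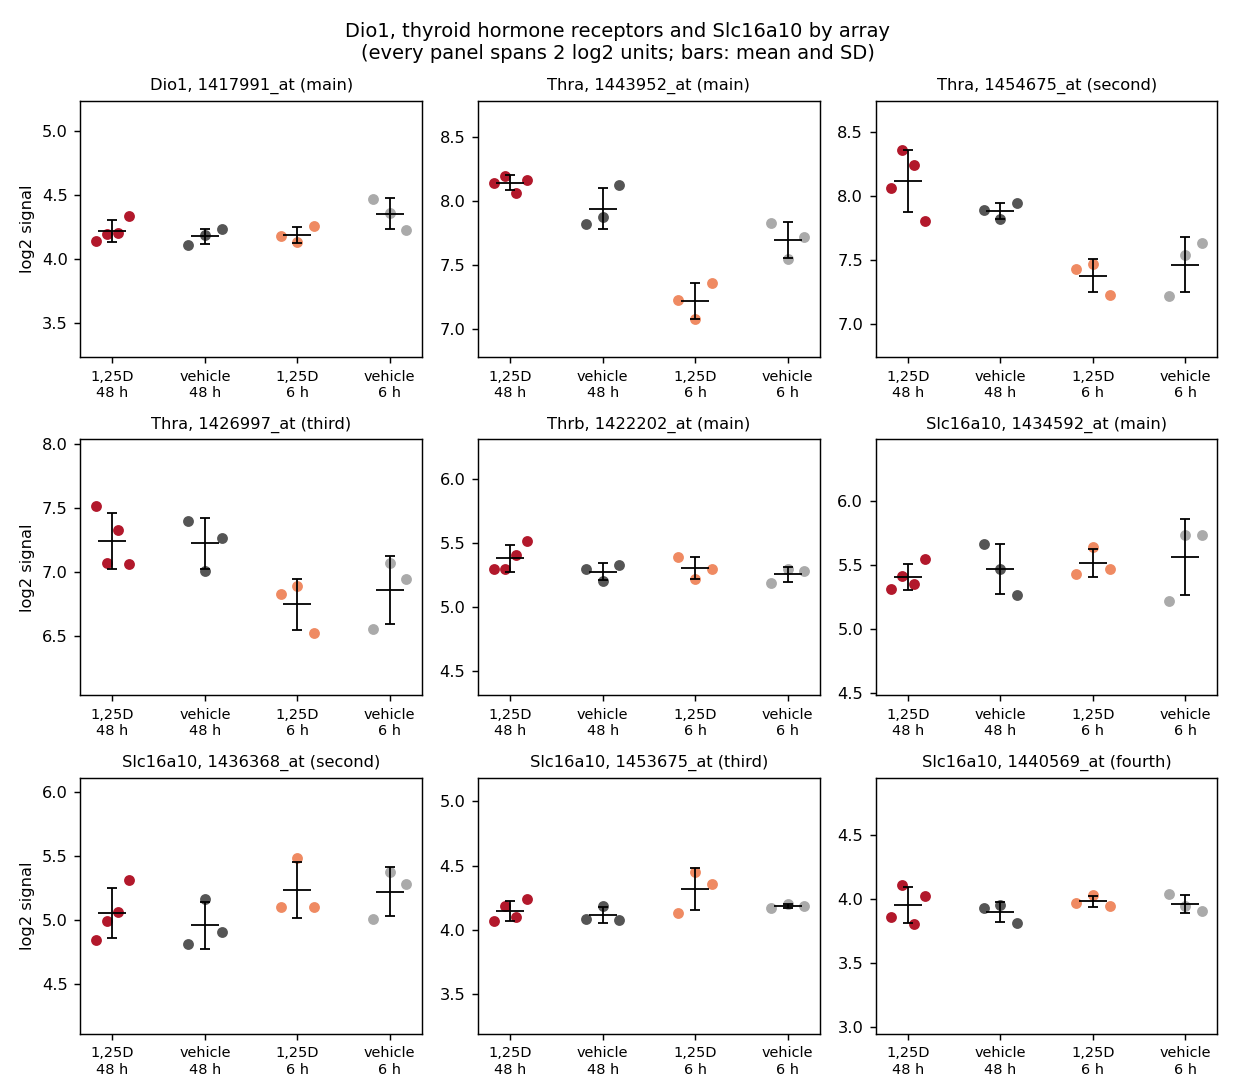
Log2 signal of the 9 probe sets of Dio1, Thra, Thrb and Slc16a10 on each array, by group, with the mean and SD as bars and the same span in every panel. Hormone and vehicle overlap everywhere except in the main probe set of Thra at 6 h, where the arrays with 1,25D are lower; in the other Thra probe sets at 6 h vehicle replicate 1 alone makes the overlap. No difference between hormone and vehicle was called.

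Counted by main probe set, 1 of 5 members was called at 48 h, against 2.39% of all genes, and 1 of 5 at 6 h, against 0.852% of all genes; in both cases it was Dio2, chosen for this response. Over the 12 probe sets, 3 were called at 48 h and 2 at 6 h, all of Dio2, where 1.33% and 0.582% of all probe sets were called. In the difference between the responses, 1 of 5 main probe sets and 2 of 12 probe sets were called, again of Dio2, against 0.632% of all genes and 0.36% of all probe sets. Nothing is read from these counts of Dio2, since it was put forward with its responses known. Among the 9 probe sets of the other members, 0 were called at 48 h and 0 at 6 h by limma, and the count at an unadjusted p under 0.05 was 0 at 48 h and 1 at 6 h, the main probe set of Thra. Hormone and vehicle did not overlap in 0 of these 9 at 48 h, against 8.93% of all probe sets, and in 1 of 9 at 6 h, against 9.46%. Without vehicle 6 h replicate 1 the 6 h count was 4 of 9, the 3 Thra probe sets and the main one of Slc16a10, with 1,25D lower in each, against 25.3% of all probe sets. Over time in vehicle, 0 of 5 main probe sets were called, against 18.6% of all genes, and 1 of the 12 probe sets, of Thra, had an unadjusted p under 0.05. Shares of all probe sets at an unadjusted p under 0.05 are not given here, so nothing is read from those counts. The times did not overlap in 2 of the 12, the main probe set of Dio2 and the second of Thra, against 23.5% of all probe sets. These comparisons share their vehicle arrays with one another.

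**Figure D3:**
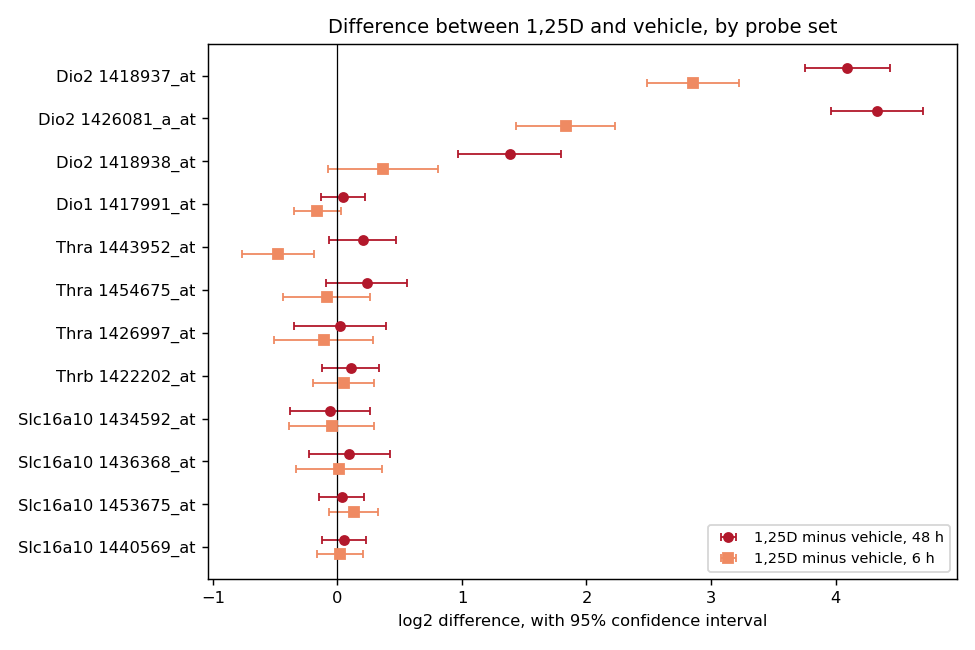
Log2 difference between 1,25D and vehicle at 48 h and at 6 h for the 12 probe sets, each with its 95% confidence interval. The Dio2 probe sets lie right of 0, with the 6 h interval of 1418938_at including 0, and of the other probe sets the 6 h interval of the main Thra probe set excludes 0 before adjustment.

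Over the 13 arrays, the other members had lower correlations with Dio2 than the genes named below, and Thrb had the highest among these members. Pearson's r with the main Dio2 probe set was -0.305 for Dio1, 0.185 for Thra, 0.534 for Thrb and -0.223 for Slc16a10, given as a description since the arrays share groups and scale. The genes most like Dio2 by the same measure were Arg2 (r = 0.987), F13a1 (r = 0.976), Gne (r = 0.966), Cbs (r = 0.963) and Efemp1 (r = 0.956). Arg2 encodes a mitochondrial arginase, and F13a1 a subunit of the clotting factor that crosslinks fibrin. Arg2 averaged 9.80 ± 0.08 with 1,25D (SD, n = 4) and 8.35 ± 0.06 with vehicle (SD, n = 3) at 48 h, and F13a1 8.11 ± 0.30 with 1,25D and 4.67 ± 0.22 with vehicle. At 6 h Arg2 averaged 9.43 ± 0.06 with 1,25D and 8.32 ± 0.12 with vehicle (SD, n = 3 each), and F13a1 6.24 ± 0.24 with 1,25D and 4.8 ± 0.12 with vehicle. Gne, the first enzyme of sialic acid synthesis, Cbs, an enzyme of the transsulfuration pathway, and Efemp1, an extracellular matrix protein, differed by 1.26, 2.39 and 1.14 at 48 h and by 1.39, 1.49 and 0.79 at 6 h. Like Dio2 they were chosen by these signals, which therefore have no test here.

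Around these members, 108 genes of thyroid hormone transport, activation, reception and action and of selenoprotein synthesis were listed, and 95 were measured. At 48 h, 2 were called higher with 1,25D (Dio2 and Gpd2) and 1 lower (Selenos), which is 3.16% against 2.39% of all genes. At 6 h, 1 was called higher (Dio2) and 0 lower, which is 1.05% against 0.852%. The median difference over the 95 was -0.01 log2 units at 48 h and -0.05 at 6 h, beside 0.00 and -0.02 over all genes. With Dio2 included, the share of called genes was thus near the background at both times. Of the 94 genes without Dio2, Gpd2 and Selenos were called at 48 h and none at 6 h.

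Of 15 measured genes known as targets of thyroid hormone in other tissues, 1 was called higher at 48 h and 0 were called at 6 h. The shares of all genes called were 2.39% and 0.852%. Medians of the 15 were 0.07 and -0.18. An unadjusted p under 0.05 (limma) was found for 5 at 48 h and 4 at 6 h. The share of all genes at that threshold is not given here. Gpd2, the mitochondrial glycerol-3-phosphate dehydrogenase that thyroid hormone induces in liver, averaged 11.26 ± 0.17 with 1,25D (SD, n = 4) and 10.76 ± 0.09 with vehicle (SD, n = 3) at 48 h. It was higher by 0.50 log2 units (SE 0.10, limma, adjusted p = 0.028), and lost the call when any 1 of the 3 arrays of vehicle at 48 h, or replicate 2 or 3 of 1,25D at 48 h, was left out (adjusted p up to 0.15). The Gpd2 call was also lost with median centring, with no intensity trend and when only the groups compared were fitted. Hr, the hairless corepressor and a hormone target in brain, averaged 8.13 ± 0.33 with 1,25D (SD, n = 4) and 7.56 ± 0.23 with vehicle (SD, n = 3) at 48 h and 9.77 ± 0.19 with 1,25D and 8.96 ± 0.35 with vehicle (SD, n = 3 each) at 6 h. Its differences of 0.57 (adjusted p = 0.37) and 0.81 (adjusted p = 0.19) were not called. Dbp, a clock-controlled transcription factor, differed by 0.66 at 48 h (adjusted p = 0.16) and -0.54 at 6 h (adjusted p = 0.62). Klf9 differed by 0.50 at 48 h (limma, unadjusted p = 0.024, adjusted p = 0.51) and 0.57 at 6 h (unadjusted p = 0.016, adjusted p = 0.60). Me1 differed by 0.32 at 48 h (unadjusted p = 0.027, adjusted p = 0.55) and -0.13 at 6 h. Neither was called.

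The receptors' partners and coregulators had no called gene at either time, where 2.39% of all genes were called at 48 h and 0.852% at 6 h. Rxra, a retinoid X receptor, differed by 0.01 at 48 h (adjusted p = 1.00) and -0.30 at 6 h (adjusted p = 0.76). Of 10 measured coregulators, the subunits Tbl1x and Tbl1xr1 of the corepressor complex had the smallest p when the lower p of the 2 times was taken for each gene, with differences of 0.08 and -0.25 at 48 h and -0.20 and -0.21 at 6 h. The 9 transporters had 0 calls with 1,25D, and Slc3a2, the heavy chain shared by amino acid transporters, differed by -0.07 at 48 h and -0.26 at 6 h (adjusted p = 0.60 at 6 h). Slco3a1, an organic anion transporter, differed by 0.21 at 48 h and 0.12 at 6 h. Of the 6 genes of hormone binding and conjugation, Sult1b1, a sulfotransferase, and Iyd, which recovers iodide, had differences of 0.14 and -0.04 at 48 h and -0.06 and 0.07 at 6 h.

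All deiodinases are selenoproteins, made by reading a stop codon as selenocysteine. None of 9 measured genes of selenocysteine synthesis and insertion was called with 1,25D. Pstk, a kinase in selenocysteine synthesis, differed by 0.34 at 48 h (adjusted p = 0.40), and Secisbp2, which binds the insertion element in the messenger RNA, by -0.22 (adjusted p = 0.90). Of 19 other selenoprotein genes, 0 were called higher and 1 lower at 48 h, with a median of -0.05. Of all genes, 2.39% were called at 48 h. Selenos, a selenoprotein of the endoplasmic reticulum that takes part in clearing misfolded proteins, averaged 10.23 ± 0.03 with 1,25D (SD, n = 4) and 10.70 ± 0.09 with vehicle (SD, n = 3), a difference of -0.47 (SE 0.09, limma, adjusted p = 0.016). The call was lost without replicate 2 or 3 of vehicle at 48 h or replicate 1 of 1,25D at 48 h (adjusted p up to 0.11). Gpx1, a glutathione peroxidase, differed by 0.28 at 48 h (adjusted p = 0.11).

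The Dio2 protein is removed by ubiquitination, and none of 8 measured genes of that process was called with 1,25D. Usp33, a deubiquitinase that acts on Dio2, differed by -0.15 at 48 h and 0.51 at 6 h (adjusted p = 0.84 at 6 h). Vcp, the ATPase that extracts proteins from the endoplasmic reticulum, differed by -0.30 at 48 h (adjusted p = 0.74) and -0.16 at 6 h. Of 12 measured genes of the pituitary axis and the thyroid gland, 0 were called with 1,25D. The shares of all genes called were 2.39% at 48 h and 0.852% at 6 h. Pax8, a transcription factor of the thyroid gland, averaged 4.64 ± 0.15 with 1,25D (SD, n = 4) and 4.82 ± 0.14 with vehicle (SD, n = 3) at 48 h, and 4.85 ± 0.17 with 1,25D and 5.45 ± 0.22 with vehicle (SD, n = 3 each) at 6 h. Its 6 h difference of -0.59 had an adjusted p of 0.12. Duox1, an oxidase that makes hydrogen peroxide, differed by -0.53 at 48 h (adjusted p = 0.27).

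**Figure D4:**
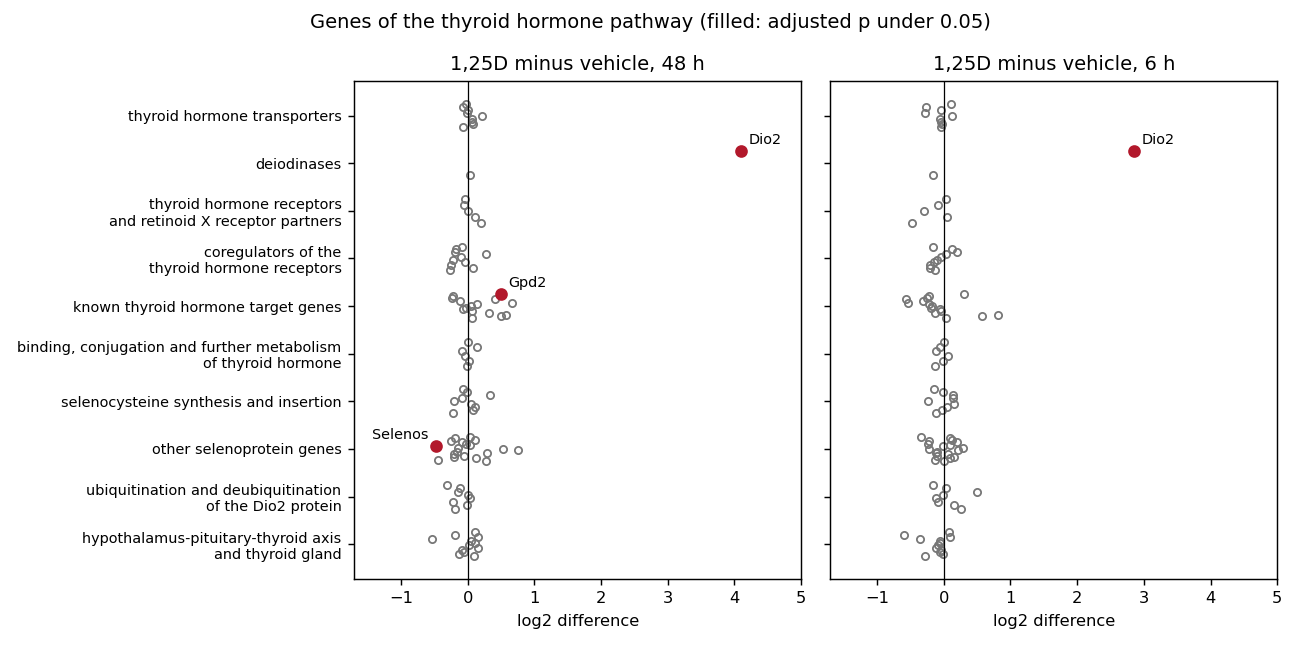
Log2 difference between 1,25D and vehicle at 48 h (left) and 6 h (right) for each measured gene of the listed groups, with called genes filled and named. Dio2 lies at 4.10 and 2.85, and all other listed genes lie within 1 log2 unit of 0.

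More of the listed genes were called over time in vehicle than between hormone and vehicle. Of the 95, 8 were higher and 14 lower at 48 h than at 6 h, which is 23.2% against 18.6% of all genes, and none of the members was among them. The largest rises among the listed genes were Dbp with 2.92 log2 units, Selenop, the plasma selenium carrier, with 2.37, Cpt1a, the carnitine palmitoyltransferase of fatty acid oxidation, with 1.28, and Secisbp2l with 0.94. The falls with the largest size were Hr with -1.40, Txnrd1, a thioredoxin reductase, with -1.40, Slc7a5, an amino acid transporter that also carries thyroid hormone, with -0.85, and Atp2a2, the calcium pump of the endoplasmic reticulum, with -0.82. Of the 22 genes, 11 kept their call without any single array, among them all of these except Slc7a5 (adjusted p up to 0.13).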

How the data were processed

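RNA from 13 samples was measured on 1 Affymetrix mouse array each. The authors' deposited values are log2 signals per probe set. Per the submitters' processing notes MAS5 was used, with no version or role given; further background correction or normalization is not given in the sources used here. The smaller A chip of this array family is named in the series' design, whereas the table holds 45101 probe sets, as many as the whole-genome array whose platform annotation supplied the gene names. After removal of 64 control sets, 34945 probe sets had 1 symbol, 932 several and 9160 none, and those with several symbols named no gene. Of the entrez identifiers, 34741 matched the RefSeq gene table (GRCm38.p6) and 0 symbols changed.

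Groups came from sample titles. Means of the 4 groups were fitted over all 13 arrays with limma 3.58.1 in R 4.3.3 (eBayes with intensity trend, two-sided), on the log2 values as deposited, with no offset or filter. Benjamini-Hochberg adjustment covered all 45037 probe sets, with calls at an adjusted p under 0.05; words of direction used of listed genes refer to such calls. Differences are 1,25D minus vehicle, or 48 h minus 6 h. Motif matching and likeness used Python 3.11.15, and figures matplotlib 3.10.9. The fit was tested on simulated data with known changes. Of 100 changes of 1 log2 unit, 74 were recovered at each time. Of 100 changes of 2 log2 units, 100 were recovered at 48 h and 98 at 6 h. False calls numbered 19 at 48 h and 5 at 6 h. Smaller changes were not simulated. The simulated noise was independent between probe sets, with no array standing apart, so these rates need not hold for the real arrays. The members, the gene lists and the tests were chosen with earlier results of these data known, and the lists are background, not independent evidence. Named genes were the members, called genes of the pathway lists and otherwise the 2 of a list with the smallest p at either time. Cyp24a1 and the 5 genes most correlated with Dio2 were named too, and so were Klf9 and Me1. Krt5, Krt14, Krt8, Krt18, Krt19, Pbsn, Tgm4, Tg, Slc5a5, Ptprc, Cd3e, Cd68 and Vim were named as markers. For the comparison over time, the largest called changes were named. Alternatives were offsets of 16 and 64, quantile normalization, median centring, no or robust trend, leaving out dim probe sets, fitting only the groups compared, array weights, a replicate block, other probe sets and leaving out arrays.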

Additional observations from a re-analysis of the deposited data

Results flagged for a closer look

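The Dio2 response to 1,25D had different values at the 2 times. In the main probe set the 48 h response of 4.10 log2 units exceeded the 6 h response of 2.85 by 1.24 (95% confidence interval 0.74 to 1.75). In the second probe set the responses were 4.34 and 1.83, a difference of 2.50 (1.96 to 3.05). These values were singled out by the test of the difference itself and are descriptions, since Dio2 was chosen with its responses known. The difference depended on the probe set in size but not in direction.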

How the results depend on the processing

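Over 26 alternative settings, the Dio2 difference from vehicle was 2.90 to 4.34 log2 units at 48 h and 1.69 to 2.95 at 6 h, with the smallest values at an offset of 64; its calls are not counted as support, since Dio2 was put forward for this response. For the difference between the responses, the count of 1 called member became 0 with median centring and 0 with the replicate block, and ranged from 0 to 1 when arrays were left out one at a time. It was 0 when any of the 3 arrays of vehicle at 48 h was left out, and likewise replicate 1 or 2 of 1,25D at 48 h, replicate 1 or 3 of 1,25D at 6 h and replicate 2 or 3 of vehicle at 6 h; Dio2's difference then stayed between 1.15 and 1.30; the cause was not tested. The members' other counts did not change in these settings.

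Over all probe sets the counts moved more: 356 (without vehicle 48 h replicate 2) to 1639 (array weights) at 48 h, against 600; 121 (only the groups compared) to 425 (without the 2 arrays that stood apart) at 6 h, against 262; 88 (without 1,25D 6 h replicate 1) to 376 (array weights) for the difference, against 162; and 3532 (probe sets that can match several transcripts left out) to 8096 (without the 2 arrays) over time in vehicle, against 5526. The sample titles number the replicates and name no pairing. Of 18 same-numbered pairs, 7 had a correlation of deviations over 0.1 (-0.54 to 0.48), and 4 of 13 arrays correlated best with their own number. Deviations from means of 3 or 4 arrays depend on one another, so whether the arrays were paired stays unknown. Blocking on the replicate numbers gave 534, 279, 146 and 5722 calls for these comparisons in the same order. With the dimmest 40% of probe sets left out, Dio1 gave no value. Signal over background is not known for any probe set, which limits statements on Dio1, Thrb and Slc16a10.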
